A study of Mus musculus with 12 samples.

Results

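The genes described are the subunits, activators, inhibitor and assembly factors of the proteasome, taken as every row of the count table whose symbol starts with Psma, Psmb, Psmc, Psmd, Psme, Psmf or Psmg followed by a digit. This gave 50 genes of 25899 symbols, and 48 of them passed the filter on low counts that left 12622 genes for testing. RNA was sequenced from intraepithelial lymphocytes (IEL), the T cells that lie between the epithelial cells of the gut, sorted from the small intestine of Rag2-/- mice, hosts that cannot form T or B lymphocytes but keep innate lymphoid and myeloid cells. The hosts had received 1 intravenous transfer of conventional T cells, which were isolated from lymph nodes of donors labelled Themis WT, and cells were taken after 1 week. CD4 IEL (TCRβ CD4 cells) and CD8αα from CD4 (TCRβ CD8αα cells) came from hosts given CD4 T cells, called the CD4 progeny. CD8αβ IEL (TCRβ CD8αβ cells) and CD8αα from CD8αβ (TCRβ CD8αα cells) came from hosts given CD8αβ T cells, called the CD8αβ progeny. Each group had 3 libraries, the genotype in the labels was WT for all 12, and no source used here gives the ages of hosts or donors. The series asks how CD8αα IEL from CD4 T cells differ from those from CD8 T cells.

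The proteasome degrades proteins that carry ubiquitin. Its 20S core is a barrel of 2 outer rings of α subunits (Psma genes) and 2 inner rings of β subunits (Psmb genes), of which Psmb5, Psmb6 and Psmb7 carry the catalytic sites. The 19S regulator, built of ATPases (Psmc genes) and non-ATPase subunits (Psmd genes), binds ubiquitin chains, unfolds the substrate and feeds it into the core. In lymphocytes and in cells exposed to interferon, the catalytic subunits Psmb8, Psmb9 and Psmb10 take the places of Psmb5, Psmb6 and Psmb7, which gives the immunoproteasome, and the ring of Psme1 and Psme2 (PA28αβ) can cap the core in place of the 19S regulator. The transcription factor NFE2L1 is known to raise constitutive proteasome genes through antioxidant response elements, whereas interferon regulatory factors raise immunoproteasome genes.

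Promoter sequence is shown for 4 genes whose levels are described below, 2 constitutive catalytic subunits, 1 immunoproteasome subunit and the activator Psme3, which differed between the progenies in the other direction. Each run is the 150 bases before the gene start of RefSeq, 5′ to 3′ on the gene's strand, on GRCm38.p6 (mm10), and capitals mark a match to the antioxidant response element. The RefSeq start can differ from the gene span given below. The Psmb9 run lies inside that span, which reaches 34187764, and the Psmb6 run ends short of the span, which starts at 70525367.
Psmb5 promoter, chr14:54617996-54618145, minus strand: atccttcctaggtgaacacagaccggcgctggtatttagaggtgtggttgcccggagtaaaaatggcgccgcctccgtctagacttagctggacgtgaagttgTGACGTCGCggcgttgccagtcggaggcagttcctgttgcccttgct
Psmb6 promoter, chr11:70525207-70525356, plus strand: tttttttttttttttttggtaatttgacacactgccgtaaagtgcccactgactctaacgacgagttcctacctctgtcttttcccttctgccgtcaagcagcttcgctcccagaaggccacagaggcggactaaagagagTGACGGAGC
Psmb9 promoter, chr17:34187331-34187480, minus strand: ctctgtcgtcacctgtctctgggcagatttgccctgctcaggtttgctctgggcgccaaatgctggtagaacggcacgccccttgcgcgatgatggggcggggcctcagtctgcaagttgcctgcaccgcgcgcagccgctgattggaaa
Psme3 promoter, chr11:101316063-101316212, plus strand: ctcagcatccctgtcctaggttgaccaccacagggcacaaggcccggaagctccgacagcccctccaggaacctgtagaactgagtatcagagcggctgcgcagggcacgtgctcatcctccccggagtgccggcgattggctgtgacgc
Windows of 250 bases before the gene start were available for 41 of the 50 genes and were searched on both strands. The letters TGACNNNGC were in 5 of these 41 windows (12.2%: Psmb5, Psmb6, Psmc6, Psmd9 and Psmd12) and in 10.2% of all 32851 promoters. The interferon-stimulated response element, written as GAAA, any 2 bases and GAAA, were in 3 windows (7.32%: Psmb3, Psmd4 and Psmd9) and in 2.98% of all promoters. The letters TTCNNNGAA of the interferon gamma activated sequence were in 2 windows (4.88%: Psmb8 and Psmg1) and in 7.02% of all promoters. A match is a description of the letters and not a shown binding site. A short run of bases just after the RefSeq start lay within a GENCODE M21 transcript of the gene for 35 of the 41 genes. Psmb6 was not among these. The positions of transcript starts were not compared.

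Library totals ran from 5618917 to 11068713 counts. Whether replicates came from separate animals is not stated, and p-values therefore cover the spread between these libraries, which may be technical. In bulk RNA fewer cells of a type and less RNA per cell cannot be told apart. Groups are called by their labels throughout. Transcripts of 4 Y-linked genes summed to 233 to 449 CPM in all 6 libraries of CD4 IEL and CD8αβ IEL, in replicate 3 of CD8αα from CD4 and in replicate 2 of CD8αα from CD8αβ, and to 0.34 to 1.03 CPM in the other 4 libraries labelled CD8αα. Counts of called genes that involve libraries labelled CD8αα are therefore also given with only the 2 that had Y-linked transcripts, 1 per progeny, where the lone library was assumed to vary like the other groups. Several defining T cell transcripts were low in libraries labelled CD8αα. Of 10 T cell markers, 9 were lower in CD8αα from CD4 than in CD4 IEL and 8 in CD8αα from CD8αβ than in CD8αβ IEL by edgeR. Cd3e was at 3.21 to 22.1 CPM against 403 to 638 in CD4 IEL and CD8αβ IEL, and Cd5 at 0.32 to 8.42 against 311 to 739.6. The sum of the 10 was 5588 to 6318 CPM for CD4 IEL, 3675 to 4117 for CD8αα from CD4, 5705 to 6775 for CD8αβ IEL and 5272 to 5881 for CD8αα from CD8αβ. In both CD8αα groups most of the sum was Cd3g and Lck. Cd3g went the other way from Cd3e and Cd5, with means of 449 CPM for CD4 IEL, 2126 for CD8αα from CD4, 945 for CD8αβ IEL and 3546 for CD8αα from CD8αβ.

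Other cell type markers moved with the groups as well. The sum over 10 markers of natural killer and innate lymphoid cells was 652 to 814 CPM for CD4 IEL, 2865 to 3509 for CD8αα from CD4, 388 to 588 for CD8αβ IEL and 3177 to 5567 for CD8αα from CD8αβ, and that over 8 myeloid markers 33.2 to 93.8 CPM for CD4 IEL, 265 to 284 for CD8αα from CD4, 83.1 to 98.6 for CD8αβ IEL and 179 to 269 for CD8αα from CD8αβ. Itgam made up most of the myeloid sum in both CD8αα groups, with means of 8.97 CPM for CD4 IEL, 241 for CD8αα from CD4, 2.66 for CD8αβ IEL and 194 for CD8αα from CD8αβ. Means of Cd68, Csf1r and Lyz2 went the other way, with Cd68 at 17.3, 9.72, 55.8 and 12.3 CPM in the same order. Summed over 18 proliferation genes, levels were 2483 to 2904 CPM for CD4 IEL, 1136 to 1227 for CD8αα from CD4, 3905 to 5041 for CD8αβ IEL and 1306 to 1432 for CD8αα from CD8αβ. The sum over 12 epithelial markers was 108 to 205 CPM for CD4 IEL, 459 to 566 for CD8αα from CD4, 252 to 509 for CD8αβ IEL and 587 to 789 for CD8αα from CD8αβ. Most of its rise was in Cdh1 and Epcam, the latter with means of 4.89, 100.3, 34.2 and 207 CPM in that order. The enterocyte genes Fabp1, Fabp2 and Vil1 and the keratin Krt8 had lower means in CD8αα from CD8αβ than in CD8αβ IEL (22.6 against 34.7 CPM for Fabp1 and 51.4 against 68.2 for Fabp2), and none of the 4 was called in that comparison. The B cell markers Pax5 and Ebf1 had 0 reads in all 12 libraries. The part of these cell types in the results below was not tested. Levels also moved with transcript length. Relative to the mean of the 12 libraries, tested genes whose principal transcript is at most 1000 bases had a median log2 deviation of -0.50 to -0.40 for CD4 IEL, -0.24 to 0.03 for CD8αα from CD4, 0.20 to 0.60 for CD8αβ IEL and 0.00 to 0.37 for CD8αα from CD8αβ. The median principal transcript of the 14 tested constitutive 20S genes was 1163 bases (766 to 2911), that of the 17 19S genes 1636 bases (1316 to 3112) and that of all tested genes 2837 bases. Each comparison below was therefore also fitted with an offset per library for transcript length.

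Summed over the 50 genes, the level was 4942 ± 349 CPM for CD4 IEL, 5353 ± 520.3 for CD8αα from CD4, 8935 ± 558 for CD8αβ IEL and 6714 ± 290.0 for CD8αα from CD8αβ (CPM, read counts scaled to a common library total, mean ± SD, n = 3). The 3 CD8αβ IEL libraries were above all others, and the 3 libraries of CD8αα from CD8αβ were above all 6 of the CD4 progeny. The constitutive 20S genes summed to 1244 ± 60.2 CPM for CD4 IEL, 1600.2 ± 267 for CD8αα from CD4, 2996 ± 257 for CD8αβ IEL and 2279.7 ± 159 for CD8αα from CD8αβ. The immunoproteasome genes summed to 765 ± 97.5 CPM for CD4 IEL, 854 ± 115 for CD8αα from CD4, 1749.7 ± 130.3 for CD8αβ IEL and 1116 ± 93.0 for CD8αα from CD8αβ. The 19S genes spanned less, with 2141 ± 173 CPM for CD4 IEL, 2068 ± 117 for CD8αα from CD4, 2888 ± 217 for CD8αβ IEL and 2336 ± 73.4 for CD8αα from CD8αβ. Between CD8αα from CD4 and CD4 IEL the libraries overlapped for the immunoproteasome sum (745 to 974 against 707 to 877 CPM) and did not for the 20S sum (1344 to 1877 against 1175 to 1281 CPM). Compared between genes as CPM per kb of union exon, the mean of 12 libraries was 199 for Psmb8, 146 for Psmb5, 109 for Psmb10, 119.6 for Psme1, 71.3 for Psmb9, 74.1 for Psmb6 and 16.3 for Psmb7, and 3.51 for Psme4. Psmb8 had the highest level per length of the 50 genes. The 2 genes not tested were at or near 0. Psma8, the α subunit of the testis proteasome, had 15 reads in all and at most 8 in a library, and Psmb11, the catalytic subunit of the thymoproteasome, had 17 reads, all in CD4 IEL replicate 3. Psmc3ip, a cofactor of meiotic recombination that matches the symbol rule but is no subunit, was at 22.2 ± 3.83 CPM for CD4 IEL, 23.7 ± 5.30 for CD8αα from CD4, 32.1 ± 3.93 for CD8αβ IEL and 27.2 ± 2.55 for CD8αα from CD8αβ and was not called in any comparison.

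**Figure D1:**
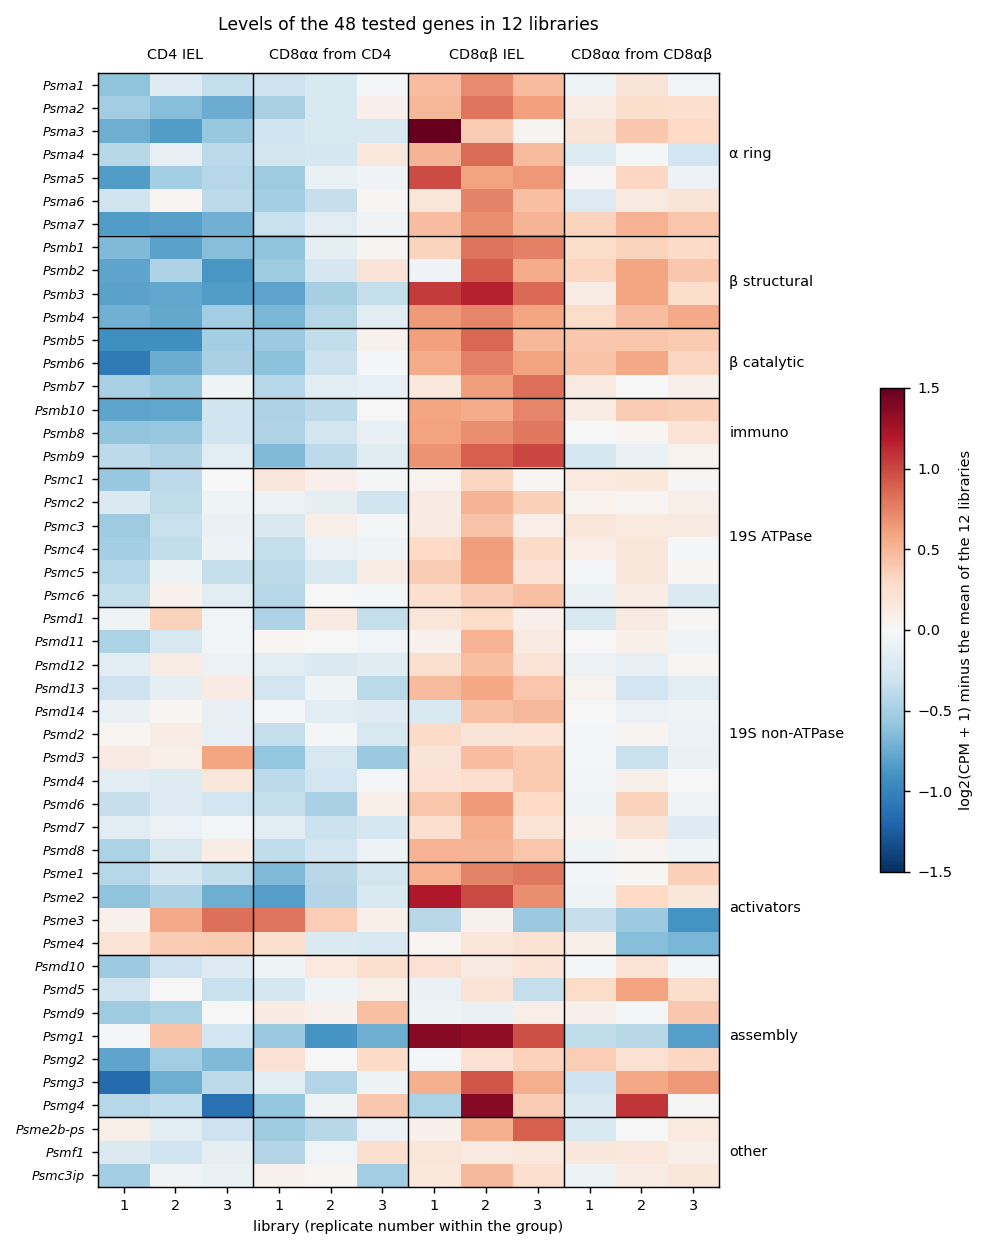
Rows are the 48 tested genes by class and columns the 12 libraries by group, with colour for log2(CPM + 1) minus the mean of the 12 libraries of that gene (red higher, blue lower, scale cut at 1.5). Most core and immunoproteasome genes are red in CD8αβ IEL and blue in CD4 IEL, whereas Psme3 is red in most libraries of the CD4 progeny.

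Without an offset for transcript length, the comparison with the most called proteasome genes was that between the companion groups of the progenies. In CD4 IEL against CD8αβ IEL, 34 of the 48 tested genes were lower and 1, Psme3, was higher by edgeR's quasi-likelihood test (Benjamini-Hochberg adjusted p under 0.05 over all genes). The share lower was 70.8%, where 16.0% of all tested genes were lower and 12.9% higher. The median log2 fold change was -0.71 for the 48 genes and 0.01 for all genes. All 14 constitutive 20S genes were lower (median -1.34), as were all 3 immunoproteasome genes (median -1.20), 10 of 17 19S genes (median -0.50) and 4 of 7 assembly factors (median -0.87). Of the 19S genes, 5 of 6 ATPases and 5 of 11 non-ATPase subunits were lower. The libraries of 39 genes did not overlap between the groups with CD4 IEL lower, and those of 0 genes with CD4 IEL higher, where these shares over all tested genes were 21.5% and 20.1%. Proliferation genes moved with this difference, with 15 of 18 lower in CD4 IEL, and their part in it was not tested.

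Transcript length moved with the same difference. Over all tested genes the median log2 fold change of CD4 IEL against CD8αβ IEL was -1.06 for principal transcripts up to 1000 bases, -0.62 from 1000 to 1500, -0.26 from 1500 to 2000, 0.00 from 2000 to 3000, 0.21 from 3000 to 5000 and 0.44 above 5000. Up to 1000 bases, 8 of 9 proteasome genes and 43.9% of the other genes were lower. From 1000 to 1500 bases, 15 of 17 proteasome genes and 40.7% of the other genes were lower, and from 1500 to 2000 bases, 7 of 10 and 21.8%. From 2000 to 3000 bases, 4 of 8 proteasome genes and 12.4% of the other genes were lower. With the length offset, 16 of 48 proteasome genes (33.3%) were lower and 1 higher, where 12% of all genes were lower and 8.75% higher, and the median was -0.33. The 16 were 9 of 14 constitutive 20S genes (median -0.60), all 3 immunoproteasome genes (median -0.71), 2 of 17 19S genes (Psmd11 and Psmd13), Psme2 and the inhibitor Psmf1, with none of the 7 assembly factors. The offset did not level short transcripts fully. The median of all genes stayed at -0.19 up to 1000 bases, the class of Psma7, Psmb3, Psmb5, Psmb6 and Psme2, and at -0.07 from 1000 to 1500. Of the 14 core genes called without the offset, 9 kept the call and 5 lost it, 13 stayed negative and Psma6 turned to 0.06 (adjusted p = 0.81). The values of 12 became smaller, and those of Psma2 (-1.35) and Psma3 (-1.62) did not. Of the 10 19S genes called without it, 2 kept the call and 8 lost it, and all 10 stayed negative. By this offset the count was no longer the highest of the comparisons, with 17 lower in the CD8αβ progeny and 18 in the mean over progenies (below). Without each library in turn and no length offset, 27 to 36 genes were lower.

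**Figure D2:**
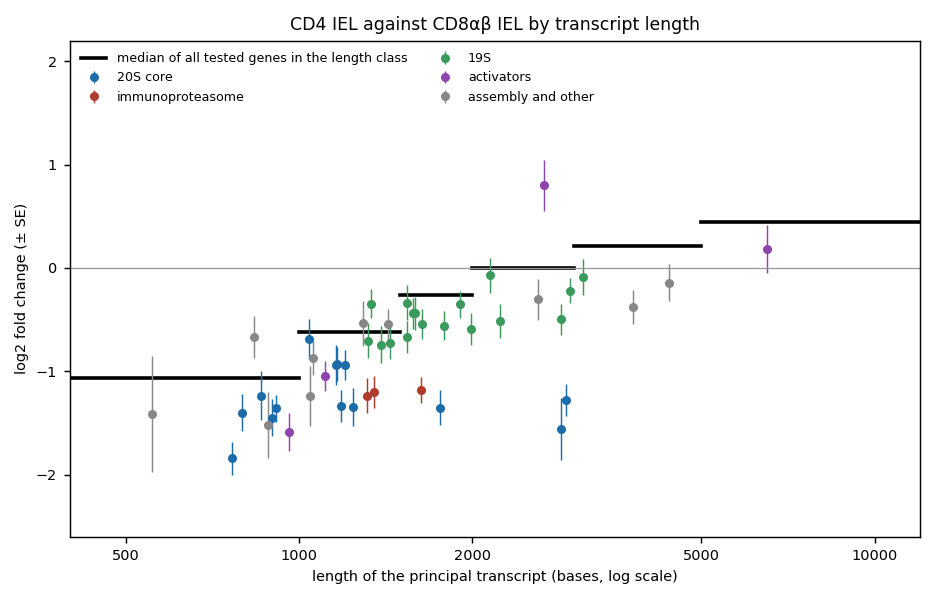
Points are the 48 tested genes, with log2 fold change of CD4 IEL against CD8αβ IEL (± SE) on the y axis against the length of the principal transcript on a log x axis, and black bars are the median of all tested genes in 6 length classes. The bars climb from -1.06 for the shortest class to 0.44 for the longest, and most core and immunoproteasome points lie below the bar of their class, with Psme3 at 0.80 above its own.

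Among the constitutive catalytic subunits, Psmb5 (chymotrypsin-like site, chr14:54614120-54617995, minus strand) was at 64.0, 63.6 and 85.0 CPM for CD4 IEL, 83.3, 94.1 and 127 for CD8αα from CD4, 186, 222 and 172 for CD8αβ IEL and 161, 162 and 160.2 for CD8αα from CD8αβ. All CD8αβ IEL libraries lay above all CD4 IEL libraries, and the values of CD8αα from CD8αβ were nearly the same in its 3 libraries. The log2 fold change of CD4 IEL against CD8αβ IEL was -1.45 ± 0.18 (SE, edgeR adjusted p = 0.000141), and -0.64 with the length offset (adjusted p = 0.00851). Psmb6 (caspase-like site, chr11:70525367-70527858, plus strand) was at 60.9, 76.3 and 90.7 CPM for CD4 IEL, 83.1, 102 and 126 for CD8αα from CD4, 189, 217 and 195 for CD8αβ IEL and 173, 191 and 160.1 for CD8αα from CD8αβ. Its order was that of Psmb5, with a difference of -1.40 ± 0.18 between the companion groups (edgeR adjusted p = 0.000166) and -0.55 with the length offset (adjusted p = 0.0266). Psmb7 (trypsin-like site, chr2:38588036-38644087, minus strand) was at 38.0, 35.7 and 51.0 CPM for CD4 IEL, 39.6, 47.97 and 49.1 for CD8αα from CD4, 59.9, 83.4 and 95.9 for CD8αβ IEL and 59.03, 53.5 and 56.6 for CD8αα from CD8αβ. It was lower in CD4 IEL, at -0.94 ± 0.20 on the log2 scale (edgeR adjusted p = 0.00357), which did not hold with the length offset (-0.28, adjusted p = 0.276). Promoter windows of Psmb5 and Psmb6 shown above hold the antioxidant response element letters.

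The immunoproteasome subunits were likewise highest in CD8αβ IEL. Psmb8 (chr17:34197721-34201454, plus strand), which takes the place of Psmb5, was at 423, 431 and 519 CPM for CD4 IEL, 466, 527 and 587 for CD8αα from CD4, 972, 1034 and 1106 for CD8αβ IEL and 635, 651 and 738 for CD8αα from CD8αβ. It was the gene with the most reads of the 3 in every library, and CD8αβ IEL stood above the other groups with no overlap. The companion groups differed by -1.18 ± 0.13 (edgeR adjusted p = 6.14e-05), and by -0.88 with the length offset (adjusted p = 0.000228). Psmb9 (chr17:34181988-34187764, minus strand), which takes the place of Psmb6, was at 184, 177 and 216 CPM for CD4 IEL, 153, 184 and 213 for CD8αα from CD4, 387, 451 and 486 for CD8αβ IEL and 203, 227 and 251 for CD8αα from CD8αβ. Here the other 3 groups lay between 153 and 251 CPM and only CD8αβ IEL was above. The difference of CD4 IEL from CD8αβ IEL was -1.20 ± 0.15 (edgeR adjusted p = 0.000166), and -0.69 with the length offset (adjusted p = 0.00261). Psmb10 (chr8:105935728-105938392, minus strand), which takes the place of Psmb7, was at 101, 102 and 142 CPM for CD4 IEL, 126, 133 and 174 for CD8αα from CD4, 265, 257 and 292 for CD8αβ IEL and 190.0, 228 and 224 for CD8αα from CD8αβ. Its difference was -1.24 ± 0.17 (edgeR adjusted p = 0.00025), and -0.71 with the length offset (adjusted p = 0.00393). In the annotation Psmb9 overlaps Tap1, Psmb7 overlaps Nek6, and Psmb8 and Psmb10 each overlap a predicted gene, so with the counting rule unknown part of their reads is uncertain.

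**Figure D3:**
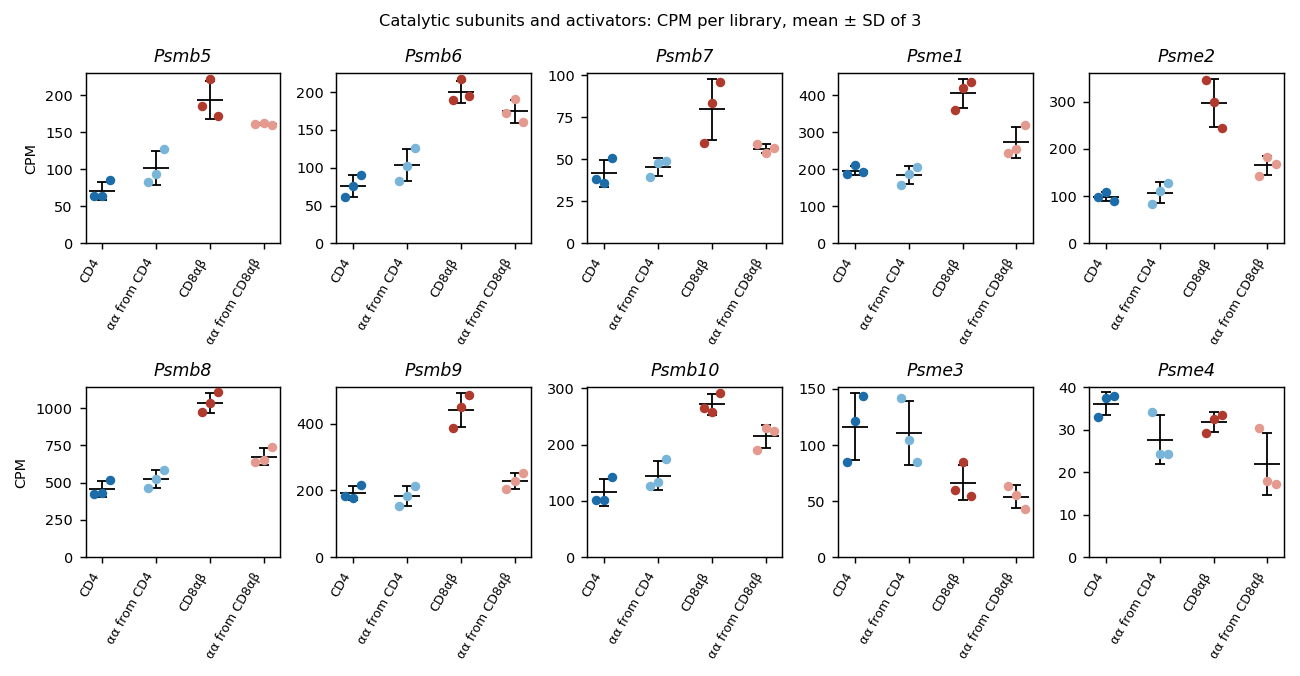
Each panel is 1 gene, with CPM on a y axis that starts at 0, the 4 groups on the x axis, points for libraries and bars for mean ± SD of 3. CD8αβ IEL is the highest group for the 6 catalytic subunits, Psme1 and Psme2, whereas Psme3 means are 116 and 111 CPM in the CD4 progeny and 66.6 and 54.0 CPM in the CD8αβ progeny.

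The PA28 genes split. Psme1 (PA28α, chr14:55578123-55581529, plus strand) was at 186, 209.9 and 193 CPM for CD4 IEL, 158, 186 and 206 for CD8αα from CD4, 359.9, 419.7 and 435 for CD8αβ IEL and 244, 253 and 319.6 for CD8αα from CD8αβ. Psme2 (PA28β, chr14:55587441-55591113, minus strand) was at 97.9, 108 and 89.6 CPM for CD4 IEL, 83.9, 111 and 127 for CD8αα from CD4, 345, 299.6 and 244 for CD8αβ IEL and 143, 184 and 169 for CD8αα from CD8αβ. Both were lower in CD4 IEL than in CD8αβ IEL, Psme1 at -1.04 ± 0.15 (edgeR adjusted p = 0.000267) and Psme2 at -1.59 ± 0.18 (adjusted p = 7.52e-05), a 3.01-fold difference. Psme2 kept its call with the length offset (-0.81, adjusted p = 0.00357) and Psme1 did not (-0.35, adjusted p = 0.0715). The table also has Psme2b-ps, a single-exon copy of Psme2, and reads may have been split between the copies, so both values are uncertain. Psme3 (PA28γ, a nuclear activator that acts without ubiquitin, chr11:101316213-101323537, plus strand) was at 84.4, 121 and 144 CPM for CD4 IEL, 142, 105 and 85.3 for CD8αα from CD4, 60.3, 84.7 and 54.8 for CD8αβ IEL and 63.6, 55.3 and 43.2 for CD8αα from CD8αβ. It was the 1 gene of 48 that was higher in CD4 IEL, at 0.80 ± 0.25 (edgeR adjusted p = 0.0263), though the groups overlap, with the lowest CD4 IEL library at 84.4 CPM and the highest CD8αβ IEL library at 84.7 CPM. The value was 0.78 with the length offset (adjusted p = 0.0369), and the call was lost without CD4 IEL replicate 2, CD4 IEL replicate 3, CD8αβ IEL replicate 1 or CD8αβ IEL replicate 3. Psme4 (PA200, an activator linked to acetylated histones) was at 33.1, 37.6 and 37.9 CPM for CD4 IEL, 34.3, 24.4 and 24.3 for CD8αα from CD4, 29.2, 32.6 and 33.6 for CD8αβ IEL and 30.4, 18.1 and 17.3 for CD8αα from CD8αβ, and the companion groups gave 0.19 ± 0.23 (edgeR adjusted p = 0.579). The inhibitor Psmf1 (PI31) was at 56.2, 53.1 and 59.4 CPM for CD4 IEL, 47.9, 63.5 and 78.3 for CD8αα from CD4, 74.1, 71.8 and 73.0 for CD8αβ IEL and 73.6, 72.9 and 69.4 for CD8αα from CD8αβ. Its difference between companion groups, -0.38 ± 0.17, was not called without the length offset (edgeR adjusted p = 0.103) and was called with it (-0.60, adjusted p = 0.0237).

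Of the structural core, Psmb3 had the largest difference between the companion groups. It was at 83.9, 85.5 and 82.0 CPM for CD4 IEL, 84.8, 104 and 114 for CD8αα from CD4, 306, 328 and 267 for CD8αβ IEL and 159, 223 and 179 for CD8αα from CD8αβ, which is -1.84 ± 0.16 on the log2 scale (edgeR adjusted p = 1.77e-05) or 3.58-fold lower in CD4 IEL, and -0.99 with the length offset. Psma3 was at 42.5, 39.4 and 47.4 CPM for CD4 IEL, 57.5, 59.99 and 60.7 for CD8αα from CD4, 213, 93.2 and 73.2 for CD8αβ IEL and 81.6, 94.3 and 87.8 for CD8αα from CD8αβ. CD8αβ IEL replicate 1 stood apart at more than the sum of the other CD8αβ IEL libraries. The difference of -1.56 ± 0.30 (edgeR adjusted p = 0.00222) became -0.95 without that library (adjusted p = 0.00131). Psma4 was at 85.6, 105 and 86.9 CPM for CD4 IEL, 94.2, 95.5 and 128 for CD8αα from CD4, 164, 206 and 159 for CD8αβ IEL and 99.2, 113 and 94.0 for CD8αα from CD8αβ and Psma5 at 53.8, 67.9 and 71.8 CPM for CD4 IEL, 66.7, 90.4 and 93.2 for CD8αα from CD4, 192, 148 and 153 for CD8αβ IEL and 98.2, 121 and 90.9 for CD8αα from CD8αβ. Psmb4 was at 78.7, 75.6 and 90.1 CPM for CD4 IEL, 80.2, 96.3 and 116 for CD8αα from CD4, 203, 217 and 197 for CD8αβ IEL and 157, 179.9 and 194 for CD8αα from CD8αβ. For these 5 genes every CD4 IEL library lay below every CD8αβ IEL library. The 14 core genes ran from -1.84 to -0.69, all negative, and with the length offset all but Psma6 were negative. Psma3, Psma4 and Psma5 each overlap another annotated gene.

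Among the 19S genes, Psmd3 (a lid subunit) was at 119, 116 and 165 CPM for CD4 IEL, 72.7, 92.4 and 74.1 for CD8αα from CD4, 125, 151 and 144 for CD8αβ IEL and 107, 86.2 and 102 for CD8αα from CD8αβ. It did not follow the companion groups, with -0.07 ± 0.17 (edgeR adjusted p = 0.788), and was lower in both CD8αα groups. Psmd8 (lid) was at 104, 122 and 157 CPM for CD4 IEL, 111, 118 and 137 for CD8αα from CD4, 208, 207 and 193 for CD8αβ IEL and 139, 149 and 138 for CD8αα from CD8αβ, and Psmd13 (lid) was at 96.2, 108 and 129.7 CPM for CD4 IEL, 97.8, 114 and 89.8 for CD8αα from CD4, 166, 179 and 159 for CD8αβ IEL and 123, 97.5 and 106 for CD8αα from CD8αβ. Both were lower in CD4 IEL than in CD8αβ IEL, at -0.67 ± 0.15 (edgeR adjusted p = 0.00614) and -0.59 ± 0.15 (adjusted p = 0.0113), and only Psmd13 kept the call with the length offset (-0.46, adjusted p = 0.0382, against -0.32, adjusted p = 0.0976, for Psmd8). The 6 ATPases, the motor of the regulator, had values from -0.73 to -0.44, and the 11 non-ATPase subunits from -0.74 to -0.07. Psmd3 and Psmd13 overlap another annotated gene.

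Among assembly factors, Psmg1 and Psmg2 form the heterodimer that helps to build the α ring, and they went different ways. Psmg1 was at 9.37, 13.2 and 7.63 CPM for CD4 IEL, 6.14, 4.69 and 5.30 for CD8αα from CD4, 26.2, 25.3 and 19.6 for CD8αβ IEL and 7.10, 6.90 and 4.94 for CD8αα from CD8αβ. CD8αβ IEL was the highest group and both CD8αα groups the lowest. Psmg2 was at 22.2, 27.1 and 24.5 CPM for CD4 IEL, 45.9, 39.4 and 48.2 for CD8αα from CD4, 38.7, 45.8 and 50.3 for CD8αβ IEL and 50.9, 46.2 and 49.1 for CD8αα from CD8αβ, with CD4 IEL alone low. Psmg3, which works with Psmg4 in the same process, was at 5.67, 7.95 and 10.3 CPM for CD4 IEL, 12.3, 9.96 and 13.1 for CD8αα from CD4, 20.4, 27.6 and 20.6 for CD8αβ IEL and 10.9, 21.1 and 22.3 for CD8αα from CD8αβ. Psmd9, a chaperone of the 19S base, was at 27.1, 28.4 and 39.7 CPM for CD4 IEL, 43.3, 41.6 and 54.6 for CD8αα from CD4, 37.7, 37.2 and 42.6 for CD8αβ IEL and 42.0, 39.2 and 52.9 for CD8αα from CD8αβ. In CD4 IEL against CD8αβ IEL, Psmg1 (-1.24 ± 0.29), Psmg2 (-0.87 ± 0.16) and Psmg3 (-1.52 ± 0.32) were lower by edgeR (adjusted p = 0.00694, 0.00202 and 0.00378). None of these 3 calls held with the length offset.

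Within the CD8αβ progeny, proteasome genes were lower in CD8αα cells. In CD8αα from CD8αβ against CD8αβ IEL, 14 of 48 genes fell and 0 rose by edgeR, which is 29.2% lower where 15.1% of all genes were lower and 16.1% higher. The median was -0.34, against 0.00 for all genes. The libraries of 25 genes did not overlap with CD8αα from CD8αβ lower and those of 1 gene with it higher (20.5% and 23.3% of all genes). The fall took in 5 of 14 constitutive 20S genes (Psma1, Psma2, Psma4, Psma5 and Psmb3), 2 of 3 immunoproteasome genes, 4 of 17 19S genes (Psmd3, Psmd8, Psmd12 and Psmd13), Psme1, Psme2 and Psmg1. With the length offset 17 genes fell and 0 rose, the same 14 with Psmc6, Psmd2 and Psme4 added, where 17.3% of all genes were lower and 15.9% higher. With same-numbered libraries taken as pairs, which no label states, and entered as a block, 14 fell and 1, Psmd5, rose. Psmd5, a chaperone of the 19S base, had 0.47 (edgeR adjusted p = 0.0297) with the block and 0.46 ± 0.18 (adjusted p = 0.0659) without. The block also ended the call of Psmd12 (adjusted p = 0.0533) and made one for Psme2b-ps (-0.54, adjusted p = 0.023). With the block and the length offset together, 17 fell and 0 rose. Without each library in turn, 8 to 16 genes fell, the lowest count being without replicate 3 of CD8αα from CD8αβ. With only the library labelled CD8αα from CD8αβ that had Y-linked transcripts, 2 fell, Psmb9 and Psmg1. All 18 proliferation genes were lower in the same comparison, and 5 of 10 innate lymphoid markers were higher and 4 lower. Their part was not tested.

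By role, the immunoproteasome fell at Psmb9 (-0.96 ± 0.15, edgeR adjusted p = 0.000288) and Psmb8 (-0.62 ± 0.13, adjusted p = 0.00201). Psmb10 had -0.34 ± 0.17 (adjusted p = 0.145). Both were also called with the length offset, Psmb9 at -0.92 and Psmb8 at -0.62. PA28 fell at Psme2 (-0.84 ± 0.18, edgeR adjusted p = 0.00232) and Psme1 (-0.57 ± 0.14, adjusted p = 0.00791), and Psme3 had -0.30 ± 0.25 (adjusted p = 0.398). None of the constitutive catalytic genes was called: Psmb5 had -0.26 ± 0.17, Psmb6 -0.20 ± 0.17 and Psmb7 -0.50 ± 0.19 (edgeR adjusted p = 0.29, 0.433 and 0.0661). The structural subunits Psma4 (-0.79 ± 0.16), Psmb3 (-0.68 ± 0.15) and Psma5 (-0.67 ± 0.18) fell by edgeR (adjusted p = 0.0023, 0.00393 and 0.0116). The fall of Psmg1 was the largest of the 48, at -1.90 ± 0.30 or 3.74-fold (edgeR adjusted p = 0.000246). Its level in CD8αα from CD8αβ, 4.94 to 7.10 CPM, did not overlap with the 19.6 to 26.2 CPM of CD8αβ IEL. Psmd13 (-0.62 ± 0.15), Psmd8 (-0.51 ± 0.15) and Psmd3 (-0.51 ± 0.17) were the 19S genes with the largest falls.

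Within the CD4 progeny the picture differed. In CD8αα from CD4 against CD4 IEL, 7 of 48 genes rose and 2 fell by edgeR, which is 14.6% higher and 4.17% lower where 15% of all genes were higher and 13.5% lower. The share that rose was thus close to the background. The median was 0.14, against 0.02 for all genes, and 8 genes did not overlap with CD8αα from CD4 higher and 4 with it lower (24.3% and 21.4% of all genes). The genes that rose were Psma2, Psma7, Psmb1 and Psmb5 of the core and the assembly factors Psmg2, Psmd9 and Psmd10. The largest rise was that of Psmg2, 0.85 ± 0.17 or 1.81-fold (edgeR adjusted p = 0.00159), and the falls were those of Psmg1 (-0.91 ± 0.30, adjusted p = 0.0367) and Psmd3 (-0.74 ± 0.17, adjusted p = 0.00506). Psmb5 rose, at 0.52 ± 0.18 (edgeR adjusted p = 0.0419) as did Psmd9, at 0.55 ± 0.20 (adjusted p = 0.0499), both near the threshold. Neither was called with the length offset (Psmb5 0.16, Psmd9 0.54). With that offset 2 genes rose, Psma2 and Psmg2, and 5 fell, Psmd3, Psmd4, Psme1, Psme2b-ps and Psmg1, where 13.9% of all genes were higher and 14.3% lower. The immunoproteasome genes were not called either way: Psmb8 had 0.20 ± 0.13, Psmb9 -0.07 ± 0.15 and Psmb10 0.33 ± 0.17 (edgeR adjusted p = 0.262, 0.779 and 0.164). Psme1 (-0.10 ± 0.14), Psme2 (0.12 ± 0.18) and Psme3 (-0.07 ± 0.24) were also not called without the offset. Without each library in turn 2 to 8 genes rose and 1 or 2 fell, and with only the library labelled CD8αα from CD4 that had Y-linked transcripts 1 rose, Psma7, and 0 fell. Of 18 proliferation genes 17 were lower in the same comparison, and their part was not tested. The rises dropped to 2 without replicate 1 or 2 of CD4 IEL, replicate 2 or 3 of CD8αα from CD4 or replicate 3 of CD8αβ IEL, and to 3 without any 1 replicate of CD8αα from CD8αβ. The falls dropped to 1 without replicate 1 or 2 of CD4 IEL or replicate 2 or 3 of CD8αα from CD4.

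**Figure D4:**
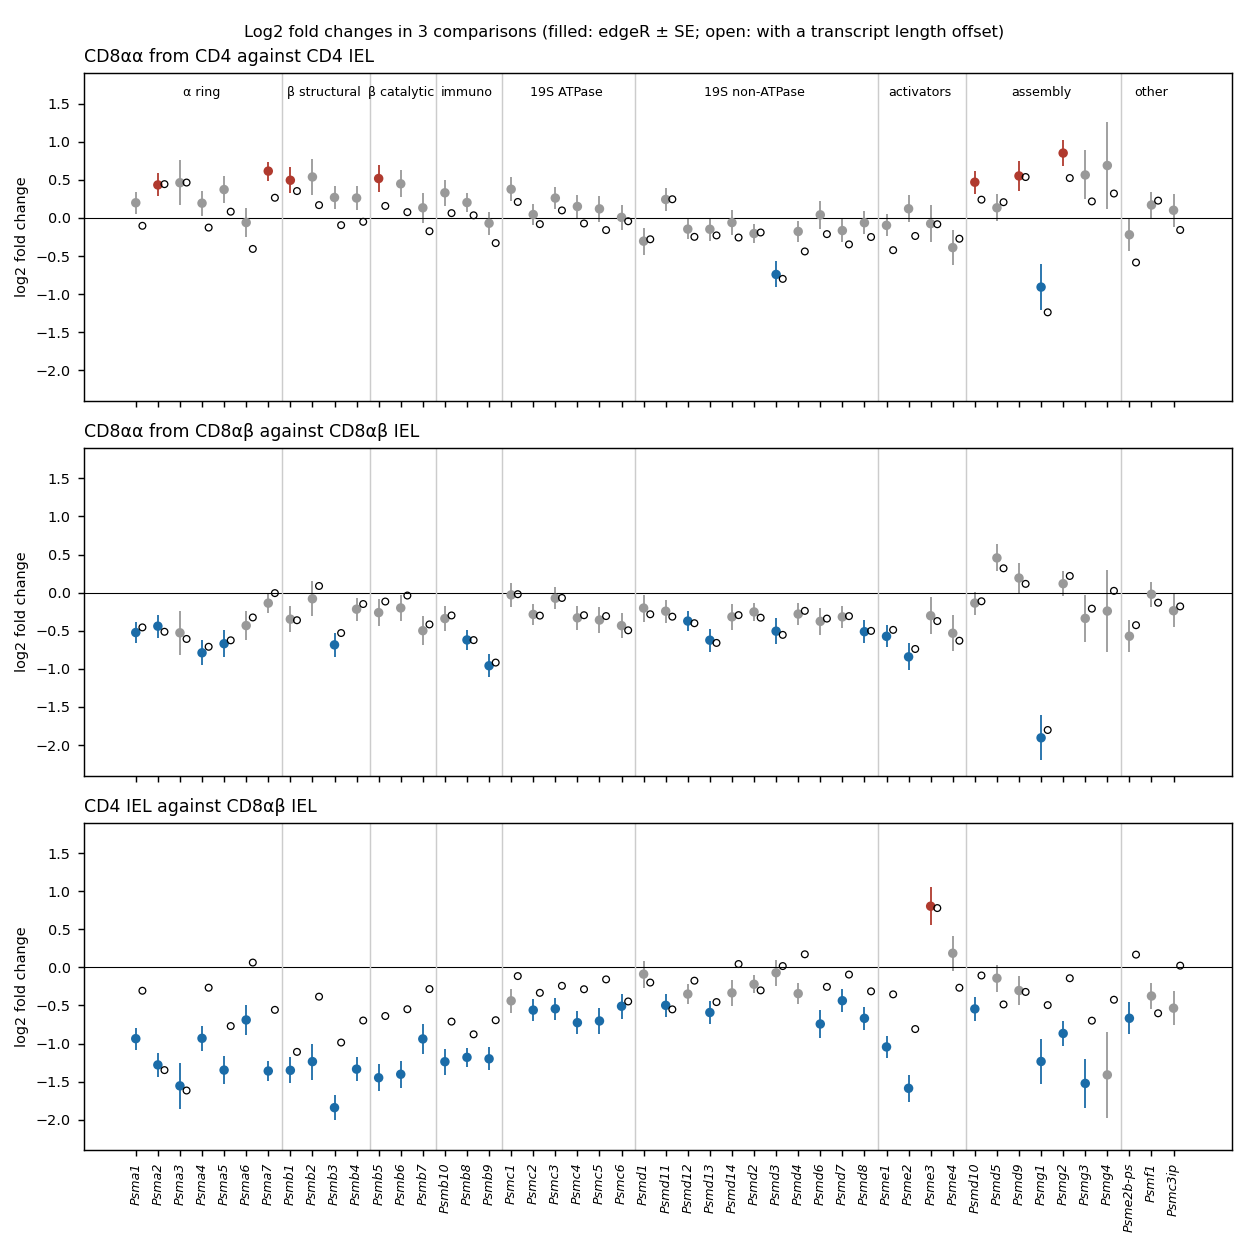
Each panel is 1 comparison, with log2 fold change on the y axis and the 48 tested genes by class on the x axis. Filled points with bars are edgeR values ± SE (red called higher, blue called lower, grey not called) and open points are values with the transcript length offset. In the CD8αβ progeny most filled points lie below 0 (median -0.34), in the CD4 progeny they lie on both sides (median 0.14), and in CD4 IEL against CD8αβ IEL the offset moves most core points toward 0 (median -1.34 to -0.60).

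The difference of each group labelled CD8αα from its companion group was compared between progenies by the interaction of the 4 groups. For 7 of 48 genes (14.6%) the change was higher in the CD4 progeny and for 0 lower by edgeR, where 1.20% of all genes were called higher and 1.35% lower, and the median difference was 0.48, against 0.00 for all genes. The 7 were the core subunits Psma2, Psma4, Psma5, Psma7 and Psmb3 and the immunoproteasome subunits Psmb8 and Psmb9, of which Psma2 and Psma7 are named after their values were seen. For Psmb8 the difference was 0.82 ± 0.18 (edgeR adjusted p = 0.0291) and for Psmb9 0.89 ± 0.21 (adjusted p = 0.0458). These calls were near the threshold, and between 0 and 9 genes were called without each library in turn. None was called without replicate 1 of CD4 IEL, replicate 2 or 3 of CD8αα from CD4 or replicate 1 of CD8αα from CD8αβ, 1 without CD4 IEL replicate 2 or CD8αα from CD8αβ replicate 3, and 2 without CD4 IEL replicate 3, CD8αβ IEL replicate 2 or CD8αα from CD8αβ replicate 2. Up to 1000 bases 2.48% of the other genes were called higher in the interaction, and from 1000 to 1500 bases 3.09%. With the length offset 2 genes were called, Psma2 (0.96, adjusted p = 0.0233) and Psmb8 (0.66, adjusted p = 0.0446), where 1.07% of all genes were called higher and 1.34% lower. With the 2 Y-linked-positive CD8αα libraries alone, 0 were called.

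Averaged over both progenies, 3 of 48 genes rose and 11 fell in CD8αα cells by edgeR, which is 6.25% and 22.9%. Over all genes 21.5% rose and 19.4% fell, so the share that fell was close to the background. Those that fell were Psmb9, 5 non-ATPase subunits of the 19S regulator (Psmd2, Psmd3, Psmd8, Psmd12 and Psmd13), Psme1, Psme2, Psme2b-ps, Psme4 and Psmg1, and those that rose Psma7, Psmd9 and Psmg2. Psmg1 (-1.41 ± 0.21, edgeR adjusted p = 0.000109), Psmd3 (-0.62 ± 0.12, adjusted p = 0.000844) and Psmb9 (-0.51 ± 0.11, adjusted p = 0.00156) had the lowest adjusted p of those that fell. Psmg2 rose (0.49 ± 0.12, edgeR adjusted p = 0.0039). In the fit with the length offset 18 fell and 1 rose, or 37.5% and 2.08%, where 22.1% of all genes fell and 20.7% rose. Without each library in turn 6 to 13 fell, with 6 or 7 without replicate 1 or 2 of CD8αα from CD4, replicate 2 of CD8αβ IEL or any 1 replicate of CD8αα from CD8αβ. The rises ranged from 1 to 4, with 1 without replicate 1 or 2 of CD4 IEL, replicate 1 or 3 of CD8αα from CD4, replicate 1 or 3 of CD8αβ IEL or replicate 3 of CD8αα from CD8αβ. With the 2 Y-linked-positive CD8αα libraries alone 3 fell (Psmd3, Psme4 and Psmg1) and 0 rose.

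CD8αα from CD4 against CD8αα from CD8αβ, the comparison the series is about, had 6 lower genes and 1 higher by edgeR, or 12.5% and 2.08%, where 2.47% of all genes were lower and 1.87% higher. The lower genes were Psma7, the structural subunits Psmb3 (-0.89 ± 0.16, edgeR adjusted p = 0.00743) and Psmb4 (-0.86 ± 0.15, adjusted p = 0.00766), the catalytic subunits Psmb6 (-0.75 ± 0.18, adjusted p = 0.0299) and Psmb5 (-0.67 ± 0.18, adjusted p = 0.0488), and Psme1 (-0.57 ± 0.14, adjusted p = 0.0427). The higher gene was Psme3, at 1.03 ± 0.25 or 2.04-fold (edgeR adjusted p = 0.0339). Its 3 libraries of CD8αα from CD4, 85.3 to 142 CPM, lay above the 43.2 to 63.6 CPM of CD8αα from CD8αβ. Of the immunoproteasome none was called, with Psmb8 at -0.36 ± 0.13, Psmb9 at -0.31 ± 0.15 and Psmb10 at -0.57 ± 0.17 (edgeR adjusted p = 0.139, 0.293 and 0.076). None of the 17 19S genes was called either, with a median of -0.21. With the length offset Psmb3 (-0.55) and Psmb4 (-0.60) were lower and Psme3 (1.07) higher (edgeR adjusted p = 0.0215, 0.0183 and 0.0283), where 1.85% of all genes were lower and 1.75% higher. No gene was called lower without replicate 1 of CD8αα from CD4, 2 without replicate 2 of CD8αα from CD4 or replicate 2 or 3 of CD8αα from CD8αβ, and 3 without CD4 IEL replicate 2. The call of Psme3 was lost without CD4 IEL replicate 2, replicate 1 or 2 of CD8αα from CD4 or replicate 2 or 3 of CD8αα from CD8αβ, and 0 were called in either direction with the 2 Y-linked-positive CD8αα libraries alone.

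Ratios of paired subunits were taken within a library, as counts per kb of union exon, so that they do not depend on library scaling. The log2 ratio of Psmb8 to Psmb5 was 0.81, 0.85 and 0.70 for CD4 IEL, 0.57, 0.57 and 0.30 for CD8αα from CD4, 0.47, 0.31 and 0.77 for CD8αβ IEL and 0.07, 0.09 and 0.29 for CD8αα from CD8αβ. It was lower in CD8αα cells than in their companions in both progenies with no overlap, though in the CD8αβ progeny the nearest libraries were 0.31 and 0.29. The log2 ratio of Psmb9 to Psmb6 was 0.63, 0.24 and 0.29 for CD4 IEL, -0.09, -0.12 and -0.21 for CD8αα from CD4, 0.06, 0.09 and 0.35 for CD8αβ IEL and -0.74, -0.72 and -0.32 for CD8αα from CD8αβ. In both progenies every CD8αα library was below every companion library. The level of a ratio depends on the lengths used, the difference between groups does not. The log2 ratio of Psmb10 to Psmb7 was 2.41, 2.51 and 2.49 for CD4 IEL, 2.68, 2.48 and 2.83 for CD8αα from CD4, 3.15, 2.63 and 2.61 for CD8αβ IEL and 2.69, 3.10 and 2.99 for CD8αα from CD8αβ, and CD8αα and companion libraries overlapped in both progenies. The members of a pair differ in length, so the differences of their fitted log2 fold changes were also taken with the length offset. For Psmb9 and Psmb6 they were -0.52 for the CD4 progeny and -0.76 for the CD8αβ progeny, and -0.41 and -0.88 with the offset. For Psmb8 and Psmb5 they were -0.32 and -0.36, and -0.12 and -0.51 with the offset. The log2 ratio of Psme1 to Psme3 separated the progenies, with 1.56, 1.21 and 0.84 for CD4 IEL, 0.57, 1.25 and 1.69 for CD8αα from CD4, 2.995, 2.73 and 3.41 for CD8αβ IEL and 2.36, 2.61 and 3.30 for CD8αα from CD8αβ. Its difference between CD4 IEL and CD8αβ IEL was -1.85 from the fit and -1.13 with the offset.

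**Figure D5:**
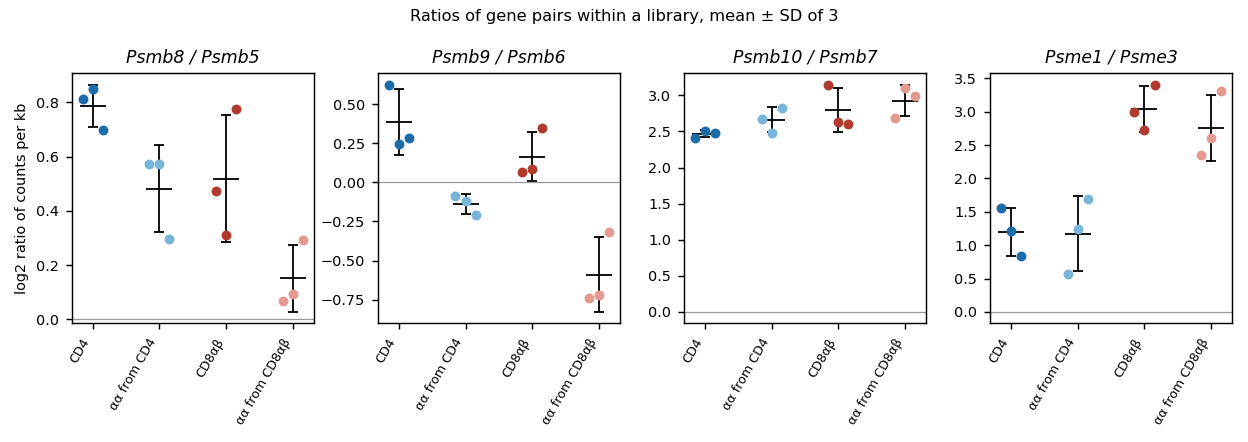
Each panel is a pair of genes, with the log2 ratio of counts per kb within a library on the y axis and the 4 groups on the x axis, points for libraries and bars for mean ± SD of 3. The Psmb9 to Psmb6 ratio is lower in the CD8αα libraries of each progeny than in their companions, and the group means of the Psme1 to Psme3 ratio are 1.20 and 1.17 in the CD4 progeny and 3.04 and 2.76 in the CD8αβ progeny.

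Other genes of the pathway came from 5 lists outside the symbol rule. The shares of all genes to set beside their counts are those above, 15% higher and 13.5% lower for CD8αα from CD4, 16.1% and 15.1% for CD8αα from CD8αβ, each against its companion, and 12.9% and 16.0% in CD4 IEL against CD8αβ IEL. When the 4 CD8αα libraries without Y-linked transcripts were left out, the calls left over the 5 lists were 3 higher and 4 lower in the CD4 progeny and 0 higher and 2 lower, Nlrc5 and Tap1, in the CD8αβ progeny. Of 10 associated factors and assembly genes, 0 changed in CD8αα from CD4 against CD4 IEL and 1 fell in the CD8αβ progeny. This was Pomp, the maturation protein of the 20S core, at 47.6 ± 6.49 CPM for CD4 IEL, 51.5 ± 10.9 for CD8αα from CD4, 149 ± 24.8 for CD8αβ IEL and 82.0 ± 9.20 for CD8αα from CD8αβ (mean ± SD, n = 3), with -0.86 ± 0.18 in the CD8αβ progeny (edgeR adjusted p = 0.00267, and 0.141 with only the Y-linked-positive CD8αα libraries). In CD4 IEL against CD8αβ IEL, 5 of these 10 were lower and 2 higher, among them Pomp (-1.65 ± 0.19, adjusted p = 8.04e-05) and the ubiquitin ligase Ube3c in the other direction (1.10 ± 0.27, adjusted p = 0.00951). With the length offset 6 were lower and 0 higher, and Ube3c had 0.73 (adjusted p = 0.0574). Shfm1, a small 19S subunit, was lower at -1.25 ± 0.43 (edgeR adjusted p = 0.042) with overlapping libraries. It was called in 4 of 12 fits without each library in turn (-1.59 to -0.49), lost without any 1 replicate of CD4 IEL or of CD8αα from CD4, without CD8αβ IEL replicate 2 or without CD8αα from CD8αβ replicate 3, and not called with the length offset (-0.77, adjusted p = 0.184). Zfand2a, which binds the 19S regulator under arsenite stress, was lower at -0.96 ± 0.22 (adjusted p = 0.006).

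Of 10 regulators of proteasome genes, 1 rose in CD8αα from CD4 and 3 rose in CD8αα from CD8αβ, with 0 that fell. Over all genes 15% and 16.1% rose. Under the length offset 2 rose in the CD4 progeny, Nfe2l1 and Stub1, and 3 rose in the other. Nfe2l1 was at 98.5 ± 24.6 CPM for CD4 IEL, 135 ± 22.5 for CD8αα from CD4, 78.1 ± 16.8 for CD8αβ IEL and 134 ± 21.4 for CD8αα from CD8αβ. It rose in the CD8αβ progeny (0.78 ± 0.22, edgeR adjusted p = 0.0149) and had 0.46 ± 0.22 in the CD4 progeny (adjusted p = 0.136) without the offset. The call in the CD8αβ progeny was lost without CD8αβ IEL replicate 2 or CD8αα from CD8αβ replicate 1. The ligase Stub1 rose in both, with 0.87 ± 0.14 and 0.54 ± 0.14 (edgeR adjusted p = 0.000346 and 0.00841), the latter not called without CD8αβ IEL replicate 3. With only the Y-linked-positive CD8αα libraries, Stub1 was called in the CD4 progeny (adjusted p = 0.0304), and neither Stub1 (0.269) nor Nfe2l1 (0.344) in the CD8αβ progeny. Bach1, a repressor at antioxidant response elements, was called only in the mean over progenies (-1.15 ± 0.41, adjusted p = 0.0391), at 1.54 to 12.3 CPM, in 5 of 12 fits without each library in turn and not with the length offset (adjusted p = 0.0521). Sel1l, of endoplasmic reticulum degradation, was higher in CD4 IEL than in CD8αβ IEL (0.76 ± 0.25, edgeR adjusted p = 0.0352), which was lost with the length offset (0.34, adjusted p = 0.19) and without CD4 IEL replicate 1, CD4 IEL replicate 2 or CD8αβ IEL replicate 2.

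Of 11 tested ubiquitin and shuttle genes, 2 fell and 0 rose in each progeny. That is close to the shares of all genes that fell, 13.5% and 15.1%. In CD4 IEL against CD8αβ IEL, 3 were higher and 4 lower. These counts became 1 and 2 falls with the length offset and, between the companion groups, 2 higher and 3 lower. The shuttle genes Rad23b (1.28 ± 0.23) and Ubqln2 (1.28 ± 0.31) were higher there (edgeR adjusted p = 0.00128 and 0.00841). The ubiquitin precursor Rps27a (-3.44 ± 0.79) was lower (edgeR adjusted p = 0.00597), and became -1.54 without CD8αβ IEL replicate 1. In the CD8αβ progeny it fell by edgeR (-2.78 ± 0.75, adjusted p = 0.0122), and it was not called without that library (-0.87).

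Of 11 interferon-pathway genes, 5 fell and 1 rose in CD8αα from CD4, and 5 fell and 0 rose in CD8αα from CD8αβ. The counts were the same with the length offset, and with only the Y-linked-positive CD8αα libraries 3 fell and 1 rose in the CD4 progeny and 1 fell in the CD8αβ progeny. Nlrc5, the activator of MHC class I genes, had log2 fold changes of -1.30 ± 0.18 for CD8αα from CD4 and -1.32 ± 0.18 for CD8αα from CD8αβ (edgeR adjusted p = 9.89e-05 and 6.95e-05), both falls, and Irf9 -1.05 ± 0.24 and -0.71 ± 0.24 (adjusted p = 0.00513 and 0.0377). In the CD8αβ progeny Irf9 was called in 6 of 12 fits without each library in turn (-1.01 to -0.42), lost without replicate 2 or 3 of CD8αα from CD4 or of CD8αβ IEL or replicate 1 or 2 of CD8αα from CD8αβ, and not called with only the Y-linked-positive libraries (adjusted p = 0.15). Irf8 rose in CD8αα from CD4, from 39.8 to 72.6 CPM in CD4 IEL to 313 to 329 CPM (2.50 ± 0.42, edgeR adjusted p = 0.000512). Of 7 tested myeloid markers, Itgam was called higher in both progenies, and Cd68, Csf1r and Lyz2 were called lower in the CD8αβ progeny. Their part was not tested. Of the immunoproteasome genes, Psmb8 and Psmb9 fell in the CD8αβ progeny and none in the CD4 progeny, and the difference between progenies was called for these genes but not for Psmb10 (0.67 ± 0.24, adjusted p = 0.155).

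Of 13 genes of peptide trimming and transport to MHC class I, 4 fell and 3 rose in CD8αα from CD4, and 3 fell and 1 rose in CD8αα from CD8αβ. The length offset gave 3 falls and 3 rises for CD8αα from CD4 and 4 falls and 1 rise for CD8αα from CD8αβ. The peptide transporter Tap1, whose annotated span overlaps that of Psmb9, was at 615, 572 and 598 CPM for CD4 IEL, 249.9, 315 and 296 for CD8αα from CD4, 751, 737 and 979 for CD8αβ IEL and 292, 319 and 447 for CD8αα from CD8αβ. It fell in both progenies, with -1.05 ± 0.17 and -1.22 ± 0.17 (edgeR adjusted p = 0.000372 and 9.35e-05), and the interaction was not called (0.17 ± 0.24, adjusted p = 0.764). B2m, the light chain of MHC class I, rose in the CD4 progeny (0.71 ± 0.15, adjusted p = 0.00313) and was lower in CD4 IEL than in CD8αβ IEL (-1.26 ± 0.15, adjusted p = 0.000122). Its values became 0.35 (adjusted p = 0.0454) and -0.43 (adjusted p = 0.0227) with the length offset. Tapbpl, a peptide editor of MHC class I, fell in the CD8αβ progeny (-0.61 ± 0.14, edgeR adjusted p = 0.00356), and the peptidase Blmh fell in the CD4 progeny (-0.60 ± 0.16, adjusted p = 0.0129). Neither was called with only the Y-linked-positive CD8αα libraries (adjusted p = 0.157 and 0.279), and Blmh was not called without CD8αα from CD4 replicate 1.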

How the data were processed

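Levels of 12 bulk RNA-seq libraries were used, 3 in each of 4 groups taken from the sample titles. The authors deposited raw read counts per gene, aligned with HISAT2 2.1.0 to mm10 per the submitters' processing notes. The counting program, its annotation and its use of strand are not stated here, so genes that overlap another gene (15 of 50) or have a near-identical copy are uncertain. The symbol rule, gene lists, tests and the rule for named genes were chosen with earlier results of these data known, so no pattern already seen counts as independent support.

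The count table had 25965 rows. Of rows with 1 symbol in common only that with most reads was kept, which left out 66 rows with 0.0202% of the reads. Genes were kept by filterByExpr (minimum count 10, minimum total 15), scaled by TMM and tested in 1 model of all 12 libraries with edgeR 4.0.16 (quasi-likelihood, R 4.3.3). Tests were two-sided, p-values were adjusted by Benjamini-Hochberg across 12622 genes, and the threshold was 0.05. Levels are CPM over the TMM-scaled total. A count of 0 allows up to 3 counts, and such floors cover counting error only. The fit was also run on simulated counts. These had no length shift between libraries, no pairs and no differences in cell type, so that run does not bear on them. Coordinates are those of GENCODE M21 on mm10. The principal transcript is the APPRIS principal isoform of M21. Where a gene has none, it is the longest basic protein-coding transcript, and failing that the longest transcript. The length offset is a loess curve per library of log2 CPM deviations on log2 length, entered in the model, and 141 genes without a length were left out of it. It is meant to take genes of a length as level on average. Between the companion groups it did not do so fully, with a median of -0.19 left for all genes up to 1000 bases. It was added after the data were seen.

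Named with values are the catalytic subunits, activators and Psmf1, the 3 members per class with the largest called change within progenies, and up to 4 called in each other comparison, with up to 4 called genes per pathway list. Other names were chosen after their values were seen. Some genes of the lists are counted in them but not reported here by name. Replicate numbers were checked as pairs. Correlations of deviations of same-numbered libraries were 0.13 to 0.38 in the CD8αβ progeny, all above 0.1, and 0.01 to 0.06 in the CD4 progeny. The numbers were thus taken as pairs in the CD8αβ progeny only, for the block, and the main model did not use them. No label states that they are pairs. In replicates 1 and 3 of that progeny, CD8αβ IEL had Y-linked transcripts (374 and 356 CPM). CD8αα from CD8αβ did not (0.37 and 0.69 CPM). Alternatives were library totals, DESeq2 size factors, DESeq2 1.42.0, no filter, the replicate block, each library left out, rows of a symbol summed, the libraries with Y-linked transcripts only, and offsets for length or GC content.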

Additional observations from a re-analysis of the deposited data

Results flagged for a closer look

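For 7 genes the change from companion to CD8αα differed between the progenies by the interaction term of edgeR's quasi-likelihood test, with adjusted p from 0.0291 to 0.0491. The difference, CD4 progeny minus CD8αβ progeny, was 0.87 ± 0.21 (SE, log2) for Psma2, 0.98 ± 0.23 for Psma4, 1.04 ± 0.26 for Psma5, 0.75 ± 0.18 for Psma7, 0.95 ± 0.22 for Psmb3, 0.82 ± 0.18 for Psmb8 and 0.89 ± 0.21 for Psmb9. Psma2 alone was called in both progenies, higher in the CD4 progeny and lower in the CD8αβ progeny. Psma7 was called in the CD4 progeny, at 0.62, and had -0.14 in the CD8αβ progeny. The other 5 were called in the CD8αβ progeny, from -0.96 for Psmb9 to -0.62 for Psmb8. In the CD4 progeny Psma4 had 0.19, Psma5 0.37, Psmb3 0.27, Psmb8 0.20 and Psmb9 -0.07, none of them called. Each of the 7 lost its call when some single library was left out, and 2 to 6 of 12 such fits kept it.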

How the results depend on the processing

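Settings chosen after the data were seen were the offsets for length and GC content and the pairing block within the CD8αβ progeny. The cause of the shifts below was not tested. Counts are of the 48 proteasome genes unless all genes are named. In CD8αα from CD4 against CD4 IEL (7 rose, 2 fell), 2 rose with library totals, with no filter or with the transcript length offset, 4 with a union exon length offset, 3 with a GC offset, and 1 fell with no filter and 5 with the transcript length offset. In CD8αα from CD8αβ against CD8αβ IEL, 1 rose with the replicate block over all groups or within that progeny. In CD8αα from CD4 against CD8αα from CD8αβ (6 lower), 2 were lower with the transcript length offset and 3 with the union exon offset. In CD4 IEL against CD8αβ IEL (34 lower), 16 were lower with the transcript length offset, 24 with the union exon offset and 34 with the GC offset. In the mean over progenies (3 rose, 11 fell), 1 rose with library totals, DESeq2 size factors, no filter, the transcript length offset or the GC offset, and 17 fell with library totals and 18 with either length offset. In the interaction (7 higher), 2 were called with the transcript length offset and 12 with DESeq2. Over all genes DESeq2 called 1036 between the CD8αα groups (548 by edgeR) and 817 in the interaction (323 by edgeR).

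Fewer samples entered where libraries labelled CD8αα without Y-linked transcripts were left out. In the order CD4 progeny, CD8αβ progeny, CD8αα groups, mean and interaction, all genes called were 1280.0, 1421, 1, 2622 and 13. Proteasome genes higher were 1, 0, 0, 0 and 0, and lower 0, 2, 0, 3 and 0. Psmb9 in the CD4 progeny turned from -0.07 to 0.15 with these libraries, and ranged from -0.19 to 0.023 without each library in turn, the higher values being 0.021 without replicate 3 of CD4 IEL and 0.023 without replicate 1 of CD8αα from CD4. Psme3 there ranged from -0.31 to 0.10 (-0.07 with all), with 0.10 without replicate 3 of CD4 IEL and 0.08 without replicate 3 of CD8αα from CD4. None of these values was called.

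Without each library in turn, all genes called ranged from 2768 to 3913 in the CD4 progeny, 3128 to 4086 in the CD8αβ progeny, 166 to 714 between the CD8αα groups, 2650.0 to 3764 between the companion groups, 4662 to 5358 in the mean and 147 to 368 in the interaction. Proteasome genes higher ranged, in the same order, from 2 to 8, 0 to 1, 0 to 1, 0 to 1, 1 to 4 and 0 to 9, and genes lower from 1 to 2, 8 to 16, 0 to 7, 27 to 36, 6 to 13 and 0 to 0. With lengths of the longest transcript the mean log2 ratio of Psmb8 to Psmb5 moved from 0.48 to 1.31 and that of Psmb9 to Psmb6 from -0.04 to -0.66, with the same differences between groups. The replicate block over all groups gave 6 rises and 2 falls in the CD4 progeny, where same-numbered libraries were not taken as pairs, 15 falls in the CD8αβ progeny, and 34 lower genes between the companion groups. Library totals moved the median of all genes between the companion groups to 0.13, and 0.01 is the value with TMM. Depth of 5618917 to 11068713 counts limits genes such as Psmg1, Psma8 and Psmb11.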

Other observations

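In CD8αβ IEL replicate 1, Psma3 was at 213 CPM against 93.2 and 73.2 CPM in the other CD8αβ IEL libraries. The same library was highest of its group for the ubiquitin precursor Rps27a, with 216 CPM. All 17 reads of the thymoproteasome subunit Psmb11 were in CD4 IEL replicate 3, and 11 of the 15 reads of the testis subunit Psma8 were in the 3 libraries of CD8αα from CD4.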
